A study of Homo sapiens with 12 samples.

Results

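The transcripts described here encode enzymes that remove superoxide and peroxides, together with a selenium carrier: the superoxide dismutases SOD1, SOD2 and SOD3, the catalase CAT, the glutathione peroxidases GPX1, GPX3 and GPX4, the peroxiredoxin PRDX1, and SEPP1, which encodes selenoprotein P (now named SELENOP). They were chosen by gene symbol, and all 9 were found in each of the 4 deposited tables, out of 55737 genes with a usable symbol. RNA had been sequenced from the established human skin fibroblast line HCA2 (MJ90), grown in medium with 10% fetal bovine serum. Doxycycline induced a short hairpin in these cells, named shLuc where it targets luciferase and serves as control, and shFbxo22 where it targets FBXO22, an F-box protein that selects substrates for a ubiquitin ligase. Each hairpin was studied in low-passage cells (young) and in irradiated cells (senescent, 10 Gy), giving 4 groups of 3 libraries and 12 libraries in all. The irradiation dose is written on all samples in the labels, and the young groups are labelled low passage. The labels used here give no doxycycline dose, no vector and no number of clones, and nothing in them says that libraries of 1 group are separate cultures. The p-values then cover only the variation among these libraries, and that variation may be technical.

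Superoxide is a by-product of respiration and of oxidase enzymes. Dismutases turn it into hydrogen peroxide, SOD1 mainly in the cytosol with copper and zinc, SOD2 in the mitochondrial matrix with manganese, and SOD3 outside the cell with copper and zinc. Catalase, a heme enzyme of the peroxisome, breaks hydrogen peroxide down directly, whereas glutathione peroxidases use glutathione and peroxiredoxins use thioredoxin as the reductant. GPX1, GPX3, GPX4 and SEPP1 are selenoproteins, made by reading a stop codon as selenocysteine. In senescent fibroblasts raised levels of reactive oxygen species are commonly described, and SOD2 is a well-known target of NF-kB.

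The authors' deposited tables give one comparison each: senescent against young cells within each hairpin, and shFbxo22 against shLuc within each state. Each row holds a base mean (the mean count over 6 libraries after division by size factors), a log2 fold change with its standard error, and an adjusted p over all genes tested. An adjusted p under 0.05 counts as a change below. The tables hold no value per library, so levels are given as group means reconstructed from base means and fold changes, with no error. Each group stands in 2 tables, and for the 9 genes the estimates from both tables differed by at most 0.058 on the log2 scale. In the tables of shFbxo22 senescence and of the hairpins in senescent cells the sign was turned. The reason was that of the 16 possible choices of sign only 1 made the group means meet (mean absolute log2 difference 0.0052 over 9109 genes, next choice 0.13). Every fold change given here from these 2 authors' deposited tables carries the turned sign, opposite to the sign the authors deposited. Fibroblast markers were abundant, with base means between 1456 and 228524 for 10 genes, and of 20 markers of keratinocytes, melanocytes, endothelium, leukocytes and adipocytes CD3E was at 0 in every table and the highest base mean was 374. The most abundant of these were KDR (up to 374), CDH1 (149), VWF (49.8), CD14 (34.3), PMEL (32.3), FABP4 (22.7), PTPRC (13.4) and EPCAM (13.1), while KRT5, KRT14, KRT1 and CDH5 stayed under 1. The reconstructed means of KDR and CDH1 differed between groups, at 485 and 198 in young shLuc cells and at 4.72 and 36.2 in senescent shFbxo22 cells, and their part in the results below was not tested. FBXO22 itself was lower with shFbxo22 in young cells (log2 fold change -0.81 ± 0.15, SE) but higher in the libraries labelled shFbxo22 senescent (1.01 ± 0.12), in the authors' deposited tables. MKI67, a proliferation marker, fell with senescence under both hairpins (-3.43 ± 0.10 with shLuc, -3.67 ± 0.13 with shFbxo22), and CDKN1A, the cell cycle inhibitor p21, rose under both (2.12 ± 0.10 and 2.34 ± 0.10), in the authors' deposited tables. Young shFbxo22 cells already had higher CDKN1A (4.51 ± 0.10) and lower MKI67 (-2.43 ± 0.10) than young shLuc cells in the authors' deposited table, and the part of this in the results below was not tested. The direction of the shFbxo22 senescent group is given for its label and not for a lower FBXO22 transcript.

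Young shLuc cells had the lowest reconstructed mean of SOD2, SOD3, CAT, GPX1, GPX3 and SEPP1. The highest mean was in senescent shLuc cells for SOD2, SOD3 and CAT, in the libraries labelled shFbxo22 senescent for GPX1 and GPX3, and in young shFbxo22 cells for SEPP1. GPX4 was highest in senescent shLuc and lowest in senescent shFbxo22 cells, while SOD1 and PRDX1 spanned at most 1.30-fold.

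**Figure D1:**
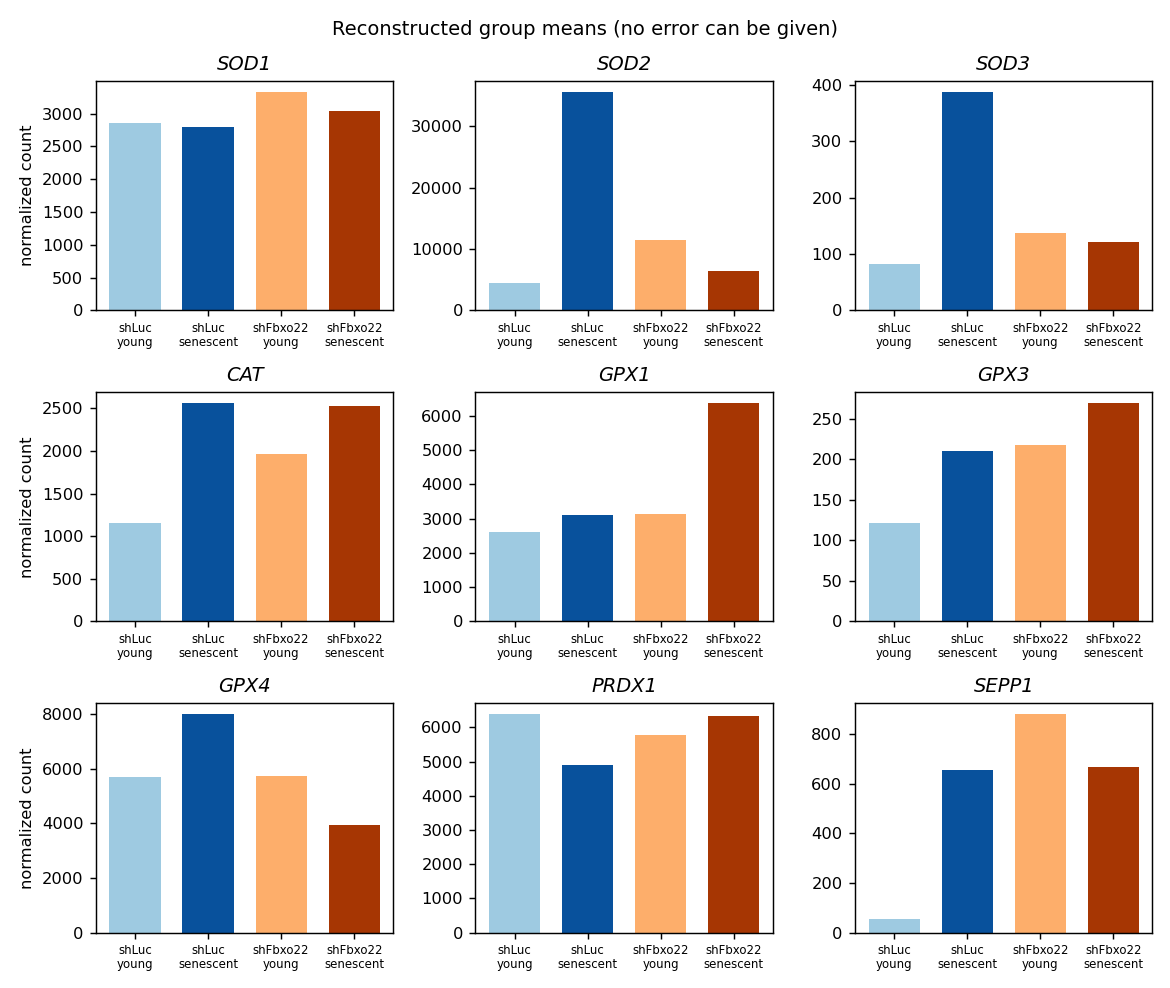
Reconstructed group means of the 9 genes, in normalized counts on axes that start at 0, for young and senescent cells with each hairpin. Bars are means over 3 libraries without error bars, since no library values are in the tables. SOD2 stands at 35585 in senescent shLuc cells, and SEPP1 at 53.2 in young shLuc cells against 656 to 880 elsewhere.

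SOD2 was the most changed dismutase. In shLuc cells its reconstructed mean went from 4482 normalized counts (young) to 35585 (senescent), and in shFbxo22 cells from 11409 to 6455. The senescent control cells thus stood apart from the other 3 groups, and senescence moved the transcript in opposite directions with the 2 hairpins. In the control it rose 7.94-fold (adjusted p = 1.05e-280), and 0.48% of all tested genes rose further, in the authors' deposited table. With shFbxo22 it fell, at a log2 fold change of -0.82 ± 0.10 (adjusted p = 8.14e-15) in the authors' deposited table. Between hairpins SOD2 was higher with shFbxo22 in young cells, at 1.35 ± 0.09 (adjusted p = 6.69e-46), and lower in senescent cells, at -2.46 ± 0.09 (adjusted p = 6.86e-161), in the authors' deposited tables. WTAP, which encodes a subunit of the RNA m6A methyltransferase, overlaps SOD2 on the other strand in GENCODE 29. Without a stated strand setting, reads of both genes cannot be told apart there. WTAP was at 0.94 with senescence in shLuc and at -1.15 between hairpins in senescent cells, with base means of 2419 and 2320 against 20045 and 21155 for SOD2, in the authors' deposited tables. Its part in the SOD2 values was not tested.

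The stretch before the first listed SOD2 start is shown because SOD2 had the highest level reached and the second largest difference of response among these genes. It is the 250 bases upstream of the RefSeq start on GRCh38.p14, chr6:159727385-159727634, minus strand, written 5′ to 3′, and capitals mark GC boxes (GGGCGG on either strand).
SOD2: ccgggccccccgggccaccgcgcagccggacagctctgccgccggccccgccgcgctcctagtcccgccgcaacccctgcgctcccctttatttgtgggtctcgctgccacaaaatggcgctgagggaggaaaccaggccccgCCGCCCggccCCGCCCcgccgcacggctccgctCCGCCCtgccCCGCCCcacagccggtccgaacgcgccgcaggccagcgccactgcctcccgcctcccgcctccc
The window held 4 GC boxes, the nearest starting 64 bases before the start, and 33 CG dinucleotides against a median of 11 over 35116 RefSeq promoters. A GC box was in 42.6% of those promoters. No match to the NF-kB consensus, which was in 9.96% of all promoters, lay in this window. Only the first RefSeq start listed for the gene was used, and other starts of SOD2 were not searched. Which start gives the SOD2 transcript counted here was not tested, so the letters describe this window only.

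SOD3, the extracellular dismutase, was a low transcript with the same order of groups as SOD2. In shLuc cells its reconstructed mean went from 82.6 normalized counts (young) to 387 (senescent), and in shFbxo22 cells from 136 to 122. Senescent control cells were again the high group and young control cells the low one. It rose 4.68-fold with senescence in shLuc (log2 fold change 2.23 ± 0.18, adjusted p = 1.59e-34) in the authors' deposited table. With shFbxo22 the senescence value was -0.17 ± 0.20 and missed the threshold (adjusted p = 0.679, 95% interval -0.56 to 0.22), in the authors' deposited table. The hairpin comparison gave 0.72 ± 0.22 in young cells (adjusted p = 0.00489) and -1.66 ± 0.17 in senescent cells (adjusted p = 1.63e-21) in the authors' deposited tables.

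SOD1, the abundant cytosolic dismutase, passed the test in no comparison. The reconstructed means were 2857 and 2800 normalized counts in young and senescent shLuc cells, and 3331 and 3043 in young and senescent shFbxo22 cells. Its nearest approach was the hairpin comparison in young cells, at 0.22 ± 0.11 (unadjusted p = 0.0459, adjusted p = 0.109), in the authors' deposited table. For senescence in shLuc the 95% interval ran from -0.21 to 0.15, so a change of the size seen for SOD2 or SOD3 lay outside it.

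**Figure D2:**
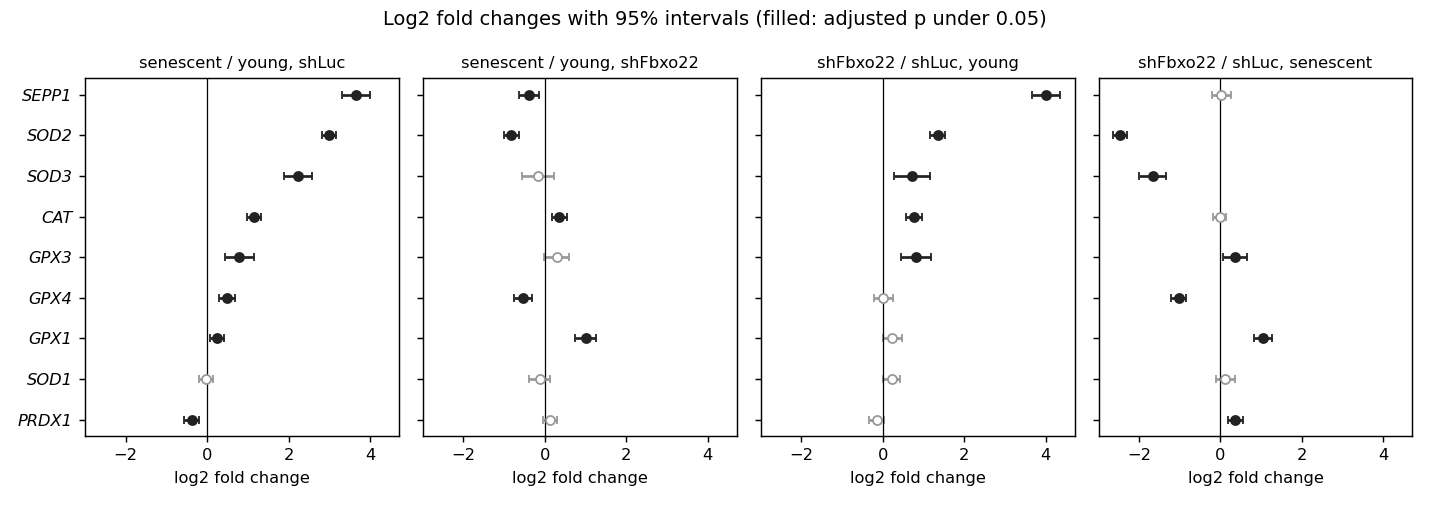
Log2 fold changes of the 9 genes in the 4 comparisons from the authors' deposited tables, as senescent over young or shFbxo22 over shLuc. Points are fold changes and bars 95% intervals from the standard errors; filled points have an adjusted p under 0.05. SEPP1, SOD2 and SOD3 lie far to the right in shLuc senescence and at or left of 0 in shFbxo22 senescence.

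CAT rose with senescence under both hairpins. In shLuc cells its reconstructed mean went from 1151 normalized counts (young) to 2562 (senescent), and in shFbxo22 cells from 1964 to 2528. The 2 senescent groups were nearly level, and the young shFbxo22 cells lay between them and the young control. Senescence raised CAT 2.23-fold in shLuc (log2 fold change 1.15 ± 0.09, adjusted p = 1.84e-35) and 1.28-fold in shFbxo22 (0.36 ± 0.09, adjusted p = 0.0011) in the authors' deposited tables. Young shFbxo22 cells had 1.70-fold more CAT than young controls (0.77 ± 0.10, adjusted p = 5.19e-14) in the authors' deposited table. The hairpins differed in senescent cells by -0.02 ± 0.08 (adjusted p = 0.905, 95% interval -0.18 to 0.15) in the authors' deposited table.

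GPX1, the cytosolic glutathione peroxidase, had its high group in the libraries labelled shFbxo22 senescent. The reconstructed means were 2623 and 3109 normalized counts in young and senescent shLuc cells, and 3131 and 6368 in young and senescent shFbxo22 cells. The other 3 groups lay between 2623 and 3131. With shFbxo22 senescence raised GPX1 2.0-fold (log2 fold change 1.0 ± 0.13, adjusted p = 5.77e-13), and 1.75% of tested genes rose further, in the authors' deposited table. With shLuc it rose 1.18-fold (0.24 ± 0.09, adjusted p = 0.0143) in the authors' deposited table. The hairpins differed in senescent cells at 1.04 ± 0.11 (adjusted p = 1.16e-19), while in young cells 0.24 ± 0.12 did not pass (adjusted p = 0.0994), in the authors' deposited tables. Its processed pseudogene GPX1P1 had base means between 108 and 173 and was also higher with senescence in shFbxo22 (0.77, adjusted p = 0.00248) in the authors' deposited table, and how the counting split reads between the copies is not given in the sources used here.

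The upstream bases of GPX1 are shown because GPX1 and CAT were the genes of the set that rose with senescence in shFbxo22, GPX1 with the larger fold change. They are chr3:49358354-49358603 on GRCh38.p14, minus strand, and capitals mark a GC box and a match to the p53 half-site consensus.
GPX1: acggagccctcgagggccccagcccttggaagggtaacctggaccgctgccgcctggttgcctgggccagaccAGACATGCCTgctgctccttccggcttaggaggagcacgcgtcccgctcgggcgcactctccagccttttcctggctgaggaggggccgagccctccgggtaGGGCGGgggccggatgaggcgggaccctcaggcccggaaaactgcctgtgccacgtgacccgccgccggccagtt
The half-site match starts 177 bases before the RefSeq start and reads as a match on both strands, and such a match was found in 5.57% of all promoters. It was in 1 of the 7 genes with a promoter entry. A match is a description of the letters and not of binding.

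GPX3, the secreted glutathione peroxidase, was a low transcript that was lowest in young control cells. In shLuc cells its reconstructed mean went from 122 normalized counts (young) to 211 (senescent), and in shFbxo22 cells from 217 to 269. Senescence in shLuc raised it 1.73-fold (log2 fold change 0.79 ± 0.18, adjusted p = 4.66e-05), and young shFbxo22 cells exceeded young controls 1.77-fold (0.82 ± 0.19, adjusted p = 7.43e-05), in the authors' deposited tables. Senescence in shFbxo22 gave 0.29 ± 0.16, which did not pass (adjusted p = 0.21, 95% interval -0.01 to 0.60), in the authors' deposited table. The hairpin difference in senescent cells, 0.35 ± 0.15, was barely past the threshold (adjusted p = 0.0447) in the authors' deposited table. That call ended without the authors' filter on low values (adjusted p = 0.0695) and with fold changes centred on their median (adjusted p = 0.0502).

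GPX4, which reduces lipid peroxides in membranes and guards against ferroptosis, moved in opposite directions with senescence. The reconstructed means were 5694 and 7999 normalized counts in young and senescent shLuc cells, and 5735 and 3929 in young and senescent shFbxo22 cells. The young groups were level, and the senescent groups lay on either side of them. It rose 1.41-fold in shLuc (log2 fold change 0.49 ± 0.10, adjusted p = 1.02e-05) and fell in shFbxo22 (-0.54 ± 0.11, adjusted p = 1.56e-05) in the authors' deposited tables. Senescent shFbxo22 cells had 2.04-fold less of it than senescent shLuc cells (-1.03 ± 0.09, adjusted p = 2.65e-28) in the authors' deposited table. Young cells differed by 0.01 ± 0.12 (adjusted p = 0.95, 95% interval -0.22 to 0.25) in the authors' deposited table.

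PRDX1, an abundant cytosolic peroxiredoxin, was the member of the set that fell in senescent controls. The reconstructed means were 6384 and 4910 normalized counts in young and senescent shLuc cells, and 5788 and 6339 in young and senescent shFbxo22 cells. Senescent shLuc cells were the low group. Senescence in shLuc lowered it 1.30-fold (log2 fold change -0.38 ± 0.09, adjusted p = 0.000235), and in senescent cells it was 1.29-fold higher with shFbxo22 (0.37 ± 0.09, adjusted p = 0.000186), in the authors' deposited tables. Senescence in shFbxo22 (0.13 ± 0.09, adjusted p = 0.377) and the hairpins in young cells (-0.14 ± 0.09, adjusted p = 0.233) did not pass in the authors' deposited tables. MMACHC, which overlaps PRDX1 on the other strand in GENCODE 29 and encodes a vitamin B12 processing protein, was at -1.22 and 1.02 in the comparisons where PRDX1 passed, with base means of 221 and 202 against 5647 and 5665, in the authors' deposited tables. Its part in the PRDX1 values was not tested.

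SEPP1, the secreted selenium carrier made mainly by liver, had the widest range of the set, 16.5-fold. Its reconstructed mean was 53.2 normalized counts in young shLuc cells, 656 in senescent shLuc cells, 880 in young shFbxo22 cells and 668 in senescent shFbxo22 cells. The young control was the low group, and the other 3 groups lay between 656 and 880. It rose 12.6-fold with senescence in shLuc (log2 fold change 3.65 ± 0.17, adjusted p = 6.69e-95), and 0.155% of tested genes rose further, in the authors' deposited table. Young shFbxo22 cells exceeded young controls 16.2-fold (adjusted p = 1.71e-113), and 0.04% of tested genes were raised further, in the authors' deposited table. Senescence in shFbxo22 lowered it 1.31-fold (-0.39 ± 0.12, adjusted p = 0.011) in the authors' deposited table. Senescent cells differed between hairpins by 0.02 ± 0.12 (adjusted p = 0.919, 95% interval -0.21 to 0.25) in the authors' deposited table. CCDC152, which overlaps SEPP1 on the other strand in GENCODE 29, had base means between 65.9 and 77.6 and passed the test in none of the 4 authors' deposited tables. These base means lie above the 53.2 normalized counts of SEPP1 in young shLuc cells. The part of CCDC152 in the SEPP1 values was not tested.

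The SEPP1 upstream bases are shown because it had the widest range and because their composition differs from that of the other genes. They are chr5:42811893-42812142 on GRCh38.p14, minus strand, and capitals mark a TATAAA, a FOXO motif (GTAAACA) and, on the other strand, an antioxidant response element core (TGACNNNGC).
SEPP1: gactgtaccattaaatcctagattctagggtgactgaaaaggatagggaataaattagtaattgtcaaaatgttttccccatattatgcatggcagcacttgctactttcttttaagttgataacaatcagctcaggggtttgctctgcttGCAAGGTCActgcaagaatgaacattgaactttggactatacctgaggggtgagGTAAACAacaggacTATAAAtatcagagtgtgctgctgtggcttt
The TATAAA starts 31 bases and the GTAAACA 45 bases before the start, and the TGACNNNGC match lies 99 to 91 bases before it. These were in 10.7%, 2.98% and 10.9% of all promoters. The SEPP1 window held 0 CG dinucleotides and 39.6% G or C, against 10 to 33 and 61.6% to 78.4% in the other 6 genes with an entry (SOD2, SOD3, CAT, GPX1, GPX3 and GPX4). CCAAT boxes were in SOD3, CAT, GPX3 and GPX4, with 5 in CAT. The AP-1 motif TGANTCA and the interferon-response motif (ISRE) were in none of the 7 windows, and in 6.57% and 3.02% of all promoters. All motifs were searched on both strands, and where motifs overlapped each was counted.

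Counting over the set, 8 of the 9 genes changed with senescence in shLuc, 7 up and 1 down, against 42.6% of all tested genes called (21.2% up, 21.3% down). The median log2 fold change of the 9 was 0.79, against -0.0031 over all tested genes. With shFbxo22, 5 of the 9 changed, 2 up and 3 down, against 17.7% of tested genes (8.16% up, 9.57% down), and the median was -0.13 against 0.0014. Between hairpins in young cells 5 were higher and none lower at this threshold, against 35.9% of tested genes called (18.7% higher, 17.3% lower) and a median of 0.72 against -0.01. In the libraries labelled shFbxo22 senescent 3 were higher and 3 lower, against 40.1% of tested genes (20.2% higher, 19.9% lower), and the median was 0.02 against -0.0089. The shares over all tested genes were not matched for base mean, which was at least 109 for each of the 9 genes. The 9 genes and the lists below were also chosen with earlier results of these data known. In bulk RNA a change in the share of cells with a transcript and a change of RNA per cell cannot be told apart.

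Whether senescence acted differently with the 2 hairpins was tested as the shFbxo22 log2 fold change minus that of shLuc. The z of that difference was used, adjusted by Benjamini and Hochberg's method across 18598 genes. Both fold changes had been moderated towards 0 in their own tables, with largest standard errors of 0.697 (shLuc) and 0.333 (shFbxo22). The part of this unequal moderation in the differences was not tested. Of the 9 genes 7 differed, 2 in the positive and 5 in the negative direction, against 37% of tested genes (18.8% positive, 18.1% negative). The response was smaller or opposite with shFbxo22 for SEPP1 (-4.05 ± 0.21, adjusted p = 3.01e-77), SOD2 (-3.81 ± 0.13, adjusted p = 2.16e-186), SOD3 (-2.40 ± 0.27, adjusted p = 6.3e-18), GPX4 (-1.03 ± 0.15, adjusted p = 1.28e-10) and CAT (-0.80 ± 0.13, adjusted p = 8.59e-09). It was shifted upwards for GPX1 (0.76 ± 0.16, adjusted p = 9.65e-06) and PRDX1 (0.51 ± 0.13, adjusted p = 0.000407). GPX3 at -0.50 ± 0.24 (adjusted p = 0.0882) and SOD1 at -0.10 ± 0.16 (adjusted p = 0.667) did not pass. For SEPP1 and SOD2 0.204% and 0.312% of the tested genes lay further out in the same direction. Between hairpins, SEPP1 and CAT passed the test in young and not in senescent cells, GPX1, GPX4 and PRDX1 in senescent and not in young cells, and SOD2, SOD3 and GPX3 in both.

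**Figure D3:**
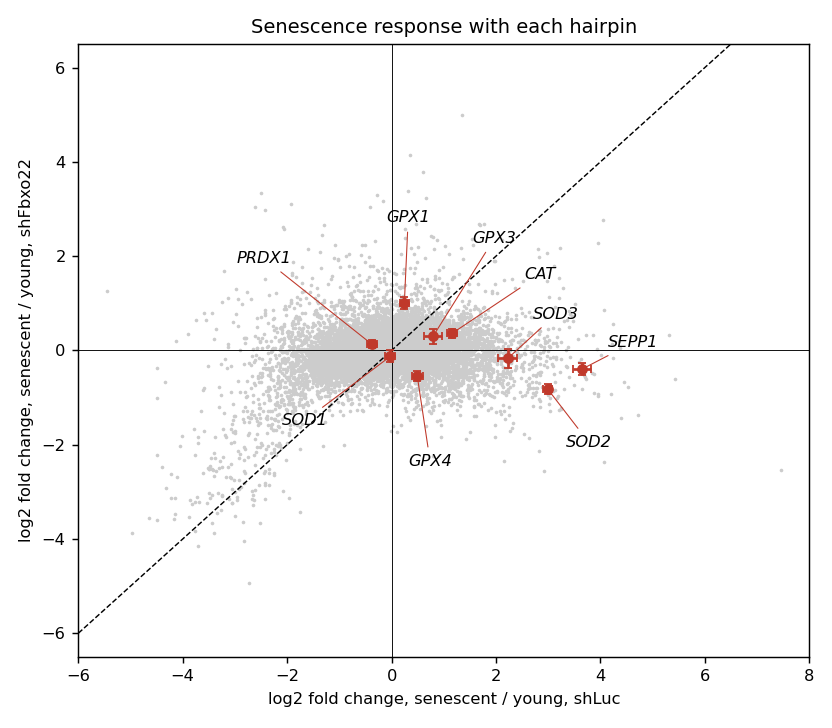
Log2 fold change of senescent over young cells with shLuc (x) against shFbxo22 (y). Grey points are the 18598 genes tested in both, red points with standard errors are the 9 genes, and the dashed line marks equal responses. SEPP1, SOD2 and SOD3 lie far below the line and GPX1 above it.

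Genes with the most similar pattern were listed by the root mean square difference of centred log2 group means over the 4 groups, among 9022 genes whose base means reached 200. Only 4 groups enter, so close matches come easily and are a description. Nearest to SOD2 were TNXB (0.05), SLC9A9 (0.14) and OAS1 (0.21), and nearest to SOD3 were MEDAG (0.08), PLIN2 (0.09) and COL4A3BP (0.11). CAT was nearest to FBXL20 (0.02), NHS (0.02) and NR2F1-AS1 (0.04), and GPX3 to ZFYVE1 (0.03), MOSPD1 (0.04) and SNORD89 (0.05). GPX4 was nearest to TBL1X (0.01), OSBPL5 (0.02) and FAM20C (0.04), and GPX1 to METTL8 (0.05), TMEM131 (0.07) and WWP1 (0.07). SEPP1 had no close neighbour: the nearest were C3, the central complement component (0.37), TXNIP (0.47) and the potassium channel gene KCNJ2 (0.47). C3 was at 119 normalized counts in young shLuc cells and between 850 and 991 in the other 3 groups.

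Other glutathione peroxidase and peroxiredoxin genes were counted in the same way. Of 7 tested genes 3 were higher and 2 lower with senescence in shLuc (42.6% of all tested genes called; median log2 fold change 0.16), 1 was higher with senescence in shFbxo22 (17.7%) and 1 between hairpins in young cells (35.9%). In senescent cells 3 were higher and 3 lower with shFbxo22 (40.1%). PRDX5, a peroxiredoxin of mitochondria and peroxisomes, rose in shLuc senescence (0.86 ± 0.10, adjusted p = 2.74e-18) was higher in young shFbxo22 than shLuc cells (0.62 ± 0.10) and was lower in senescent ones (-0.39 ± 0.09) in the authors' deposited tables. PRDX3, the mitochondrial peroxiredoxin, and PRDX6, which uses glutathione, fell in shLuc senescence (-0.61 ± 0.09 and -0.41 ± 0.09) and were higher in senescent shFbxo22 than shLuc cells (0.52 ± 0.10 and 0.87 ± 0.08) in the authors' deposited tables. The same signs were seen for PRDX1 in both comparisons. Their response to senescence was tested against the other hairpin in the same way, and of the 7 genes 2 differed positively and 3 negatively (37% of all tested genes).

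The thioredoxin cycle, which recharges peroxiredoxins, had 7 genes higher and 3 lower of 12 with senescence in shLuc (42.6% of all tested genes called), and 5 higher and 1 lower of 12 in shFbxo22 (17.7%). Between hairpins 5 were higher and 1 lower of 11 in young cells (35.9%), and 4 higher and 3 lower of 12 in senescent cells (40.1%). TXNIP, an inhibitor of thioredoxin, rose in shLuc senescence (3.22 ± 0.10) and was higher in young shFbxo22 cells (2.98 ± 0.12), while it fell with senescence in shFbxo22 (-0.45 ± 0.12) and was lower with shFbxo22 in senescent cells (-0.68 ± 0.11), in the authors' deposited tables. The sestrins SESN1 and SESN2, p53 targets linked to peroxiredoxin recycling, were higher with shFbxo22 in senescent cells (3.55 ± 0.11 and 1.11 ± 0.09) and in young cells (2.09 ± 0.15 and 1.55 ± 0.12) in the authors' deposited tables. TXNRD2, the mitochondrial thioredoxin reductase, fell in shLuc senescence (-0.99 ± 0.13) in the authors' deposited table. The response differed between hairpins for 8 of 12 genes, 4 in each direction (37% of all tested genes).

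Metal supply to the dismutases gave 5 genes higher and 1 lower of 10 with senescence in shLuc (42.6% of all tested genes called) and 3 higher and 2 lower in shFbxo22 (17.7%). Between hairpins 6 were higher and 1 lower in young cells (35.9%), and 5 higher and 3 lower in senescent cells (40.1%). The importer gene SLC39A8, whose product carries manganese and zinc, passed in all 4 comparisons with the signs of the manganese enzyme SOD2: 2.24 ± 0.14 in shLuc senescence, -1.20 ± 0.17 in shFbxo22 senescence, 0.63 ± 0.17 in young and -2.87 ± 0.14 in senescent cells between hairpins, in the authors' deposited tables. SLC31A2, a copper transporter gene, was higher with shFbxo22 in young (1.16 ± 0.13) and senescent cells (2.06 ± 0.13), and the copper chaperone gene ATOX1 in both as well (0.53 ± 0.13 and 0.55 ± 0.11), in the authors' deposited tables. COX17, a mitochondrial copper chaperone gene, fell in shLuc senescence (-0.94 ± 0.15) and rose in shFbxo22 senescence (0.54 ± 0.13), and with shFbxo22 it was lower in young (-0.43 ± 0.14) and higher in senescent cells (1.07 ± 0.14), in the authors' deposited tables. The response differed between hairpins for 6 of 10 genes, 2 positively and 4 negatively (37% of all tested genes).

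Of 14 tested selenoproteins outside the set, 4 were higher and 4 lower with senescence in shLuc (42.6% of all tested genes called; median log2 fold change -0.16), 3 and 1 in shFbxo22 (17.7%), 3 and 2 between hairpins in young cells (35.9%), and 5 and 3 in senescent cells (40.1%). DIO2, the activating thyroid hormone deiodinase, fell in shLuc senescence (-1.11 ± 0.14) and rose in shFbxo22 senescence (0.56 ± 0.16), and with shFbxo22 it was lower in young (-0.70 ± 0.16) and higher in senescent cells (0.99 ± 0.14), in the authors' deposited tables. SEPW1 was higher with shFbxo22 in young (0.77 ± 0.14) and senescent cells (1.18 ± 0.12) in the authors' deposited tables. Genes for making, inserting and taking up selenocysteine were 5 higher and 6 lower of 12 in shLuc senescence (42.6% of all tested genes called), 0 and 2 in shFbxo22 (17.7%), 2 and 4 between hairpins in young cells (35.9%), and 2 and 3 in senescent cells (40.1%). SEPHS2, the selenophosphate synthetase and itself a selenoprotein, rose in shLuc senescence (1.03 ± 0.11) and was lower with shFbxo22 in senescent cells (-1.23 ± 0.10) in the authors' deposited tables. GPX4 had the same signs in these comparisons. In shFbxo22 senescence GPX4 fell (-0.54 ± 0.11) and SEPHS2 did not pass (-0.04 ± 0.11, adjusted p = 0.874) in the authors' deposited table. LRP8, a receptor for selenoprotein P, fell with senescence in shLuc (-0.42 ± 0.13) and shFbxo22 (-0.54 ± 0.14) and was lower with shFbxo22 in young (-0.41 ± 0.13) and senescent cells (-0.56 ± 0.14) in the authors' deposited tables. Responses differed between hairpins for 4 selenoproteins positively and 3 negatively, and for 3 and 2 of the machinery genes (37% of all tested genes). The lists share genes: SEPHS2 is counted among the selenoproteins and the machinery genes, and TXNRD1, TXNRD2 and TXNRD3 among the selenoproteins and the thioredoxin cycle.

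Enzymes that make superoxide or hydrogen peroxide gave 2 higher and 5 lower of 14 with senescence in shLuc (42.6% of all tested genes called) and 2 higher and 3 lower of 13 in shFbxo22 (17.7%). Between hairpins 3 were higher and none lower of 13 in young cells (35.9%), and 6 were higher and 1 lower of 14 in senescent cells (40.1%), and the response differed in 3 genes each way (37%). POR, the electron donor of cytochrome P450 enzymes, rose in shLuc senescence (1.43 ± 0.10) and fell in shFbxo22 senescence (-0.57 ± 0.12), as did SOD2, in the authors' deposited tables. POR was the 1 gene lower with shFbxo22 in senescent cells (-1.94 ± 0.10). XDH, with base means under 200, went the other way. It was at -1.82 ± 0.37 in shLuc senescence, 1.56 ± 0.18 in shFbxo22 senescence and 3.99 ± 0.27 between hairpins in senescent cells, in the authors' deposited tables. LOX, the collagen crosslinking oxidase, fell in shLuc senescence (-0.83 ± 0.10) and was higher with shFbxo22 in senescent cells (1.07 ± 0.09) in the authors' deposited tables. Of the heme peroxidases, too few for a share to be read against the same percentages, 1 was higher and 1 lower of 4 with senescence in shLuc and 1 higher of 3 in shFbxo22. Between hairpins 1 was higher and 2 lower of 3 in young cells, and 2 higher and 1 lower of 5 in senescent cells, and 1 differed in each direction in its response. PTGS2, the inducible cyclooxygenase, was higher with shFbxo22 in young (1.51 ± 0.14) and senescent cells (1.77 ± 0.14) in the authors' deposited tables.

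Peroxisome genes beside CAT rose in 9 and fell in 3 of 29 cases with senescence in shLuc, near the 42.6% of all tested genes called, and rose in 3 and fell in 1 in shFbxo22 (17.7%). Between hairpins 12 were higher and none lower of 29 in young cells (35.9% called in all, 18.7% higher; median 0.30), and 13 were higher and 3 lower in senescent cells (40.1%; median 0.31). The response differed for 2 positively and 6 negatively (37%). The list as drawn up held PMP22, which encodes a peripheral myelin protein and no peroxisome protein. Without it the counts of 28 were 8 and 3, 3 and 0, 11 and 0, and 13 and 2. Only PMP22 was taken out. MPV17, described as a mitochondrial protein, stayed in. It was higher in shLuc senescence (0.44 ± 0.09) and with shFbxo22 in young cells (0.44 ± 0.11) in the authors' deposited tables. ACOX2, an acyl-CoA oxidase that releases hydrogen peroxide, was higher with shFbxo22 in young (1.58 ± 0.16) and senescent cells (0.63 ± 0.15) in the authors' deposited tables. ABCD3, a peroxisomal membrane transporter gene, fell in shLuc senescence (-0.44 ± 0.11), rose in shFbxo22 senescence (0.86 ± 0.12) and was higher with shFbxo22 in senescent cells (1.10 ± 0.11) in the authors' deposited tables. PEX5, the import receptor that brings catalase into peroxisomes, rose in shLuc senescence (0.71 ± 0.10), and with shFbxo22 it was higher in young (0.37 ± 0.11) and lower in senescent cells (-0.37 ± 0.10), in the authors' deposited tables.

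Transcription factors and regulators described as acting on antioxidant genes rose in 8 and fell in 1 of 15 cases with senescence in shLuc (21.2% of all tested genes rose, 21.3% fell), and their median was 0.70 on the log2 scale. With shFbxo22 senescence 2 rose and 3 fell of 15 (17.7% called). They were higher in 6 and lower in 1 of 15 between hairpins in young cells (35.9% called), and higher in 1 and lower in 10 of 15 in senescent cells (20.2% higher, 19.9% lower; median -0.43). The response differed positively for 1 and negatively for 7 (37% in all). FOXO4 was at 1.86 ± 0.15 in shLuc senescence, 1.17 ± 0.16 between hairpins in young cells and -0.69 ± 0.14 in senescent cells in the authors' deposited tables. NFE2L2, which encodes NRF2, and its repressing competitor BACH1 both rose in shLuc senescence (1.14 ± 0.09 and 1.28 ± 0.09) and were lower with shFbxo22 in senescent cells (-0.55 ± 0.08 and -0.91 ± 0.09) in the authors' deposited tables. NFE2L1 rose there too (1.03 ± 0.08) and was lower with shFbxo22 in senescent cells (-1.29 ± 0.09) in the authors' deposited tables.

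Of the genes that act beside GPX4 in lipid peroxidation and ferroptosis, 5 were higher and 3 lower of 11 with senescence in shLuc (42.6% of all tested genes called) and 3 and 2 in shFbxo22 (17.7%). Between hairpins 2 were higher and 3 lower in young cells (35.9%) and 4 and 5 in senescent cells (40.1%), and the response differed for 4 and 5 (37%). SLC7A11 and SLC3A2, which together import cystine for glutathione, rose in shLuc senescence (1.5 ± 0.09 and 1.15 ± 0.09) and were lower with shFbxo22 in senescent cells (-1.42 ± 0.09 and -0.83 ± 0.09) in the authors' deposited tables. GPX4 had the same signs in these comparisons. In shFbxo22 senescence GPX4 fell (-0.54 ± 0.11) in the authors' deposited table. SLC7A11 (-0.03 ± 0.11, adjusted p = 0.931) and SLC3A2 (0.15 ± 0.09, adjusted p = 0.326) did not pass in that table. NCOA4, the receptor that delivers ferritin to lysosomes, was higher with shFbxo22 in senescent cells (0.88 ± 0.08), and AIFM2, a coenzyme Q reductase that limits lipid peroxidation, was lower there (-0.63 ± 0.11), in the authors' deposited table. With senescence AIFM2 rose in shLuc (0.38 ± 0.11) and fell in shFbxo22 (-0.39 ± 0.12) in the authors' deposited tables.

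**Figure D4:**
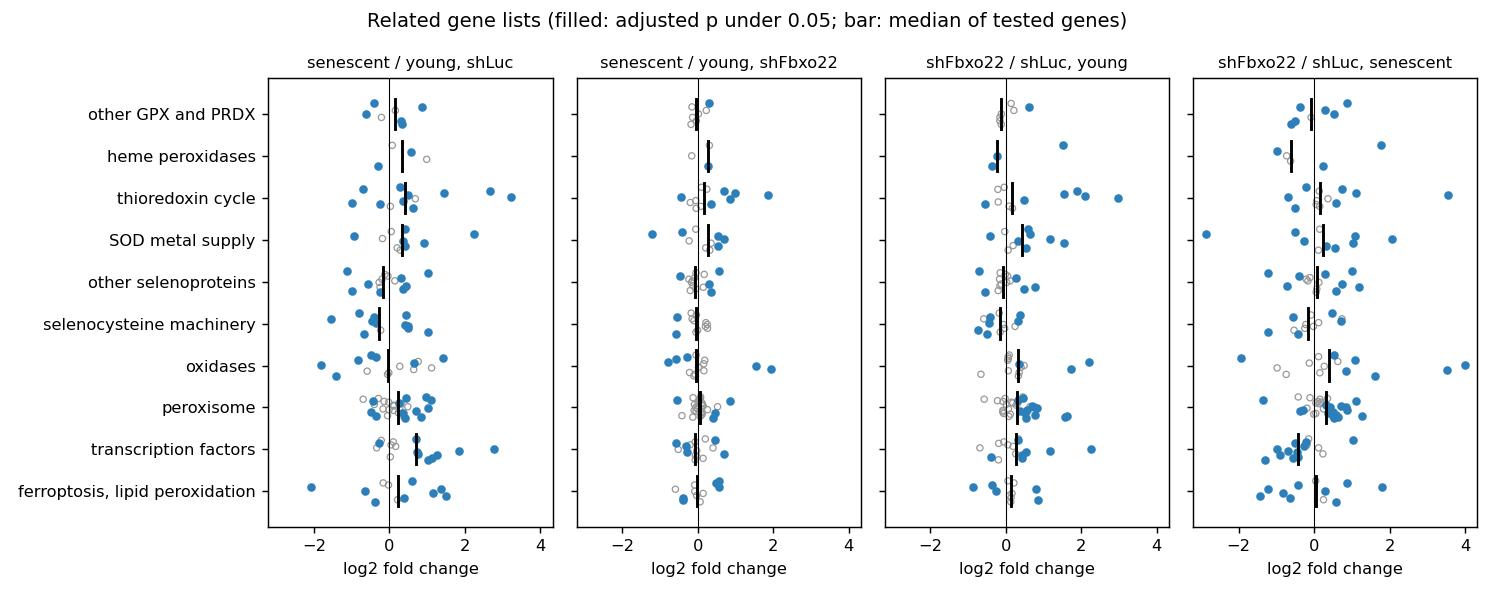
Log2 fold changes of the tested genes of 10 related lists in the 4 comparisons, from the authors' deposited tables. Each point is a gene, filled where the adjusted p was under 0.05, and each black bar is the median of a list. The transcription factor list sits at a median of 0.70 in shLuc senescence and at -0.43 between hairpins in senescent cells.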

How the data were processed

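RNA from 12 libraries, 3 in each of 4 groups, was compared in 4 tables. Per the submitters' processing notes, Bowtie2 2.0.0, STAR 2.3.0, DESeq2 1.14.1, R 3.2.2 and the builds hg19 and GRCh37 were used, with no roles given. Per the file headers, the authors deposited for 55765 rows a base mean (a normalized signal), a log2 fold change with its standard error, a Wald score as the statistic, a p-value and its adjusted p-value. Fold changes were moderated towards 0 (largest standard errors from 0.333 to 0.697), which understates changes of low genes. Library depth is unknown, since the tables hold no counts per library. Rows with a date as symbol (28) were left out.

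From these, with Python 3.11.15, numpy 2.4.6, pandas 2.3.3 and scipy 1.17.1, signs were settled, group means reconstructed (2 × base mean, split by the fold change) and the difference between hairpins tested, after a check on simulated data. Of 10 related lists, the named genes are at most 4 per comparison: the largest changes past adjusted p 0.05 with a base mean of at least 200. For genes so named, some values from other comparisons were added after they were seen, and XDH was added outside this rule. Similar genes, 3 each, were named for genes spanning at least 1 on the log2 scale, with both estimates of each mean within 0.1. The 9 genes and the lists were chosen with earlier results of these data known. Of the listed symbols SEP15, SELS, SEPX1, SELI and SECP43 were not matched. Promoters came from RefSeq (GRCh38.p14), matched for 7 of 9 genes (not SOD1 and PRDX1), and overlaps from GENCODE 29. For each gene the first start listed was taken, and other starts were not searched. The files give no coordinates.

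Alternatives were thresholds of 0.01 and 0.1, no filter, a base mean of at least 50, median centring, values implied by the other tables, and the other route to the difference.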

Additional observations from a re-analysis of the deposited data

Results flagged for a closer look

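The senescence response differed between the hairpins for 7 of the 9 genes, by the test of the difference itself (shFbxo22 minus shLuc, log2). The difference was -4.05 for SEPP1, -3.81 for SOD2, -2.40 for SOD3, -1.03 for GPX4, -0.80 for CAT, 0.76 for GPX1 and 0.51 for PRDX1. Of all genes tested, 37% differed at the same threshold. FBXO22 was higher, not lower, in the libraries labelled shFbxo22 senescent, which enter every one of these differences, and its part in them was not tested.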

How the results depend on the processing

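No paired analysis was possible because no library has values of its own in the tables, and leaving out replicates was not run for the same reason. Counts of called genes, of all genes and of the 9 genes, stayed within 1.5 times of the reported ones under every alternative run. Of 261 values of the 9 genes under the alternatives, 253 kept their direction and their side of the threshold, or, for the 36 implied by the other 3 tables, moved by less than 1 standard error. The sign changed once: GPX4 between hairpins in young cells, not past the test, was at -0.018 after centring on the median (adjusted p = 0.928). At a threshold of 0.01, GPX1 in shLuc senescence, SEPP1 in shFbxo22 senescence and GPX3 between hairpins in senescent cells no longer passed. At 0.1, GPX1 between hairpins in young cells and the GPX3 difference of responses passed. The other route to the difference, from the hairpin tables, called the same number, 7 of the 9 genes, with SEPP1 at -4.00 and SOD2 at -3.81. This route and the 36 values implied by the other 3 tables rest on the same 12 libraries. They had to come out close by arithmetic and are no separate evidence for the differences. The choice of signs was the same over 12635 genes (base mean 50 or more) and over 3588 (1000 or more). With a base mean of at least 1000, the list of similar genes stayed the same for GPX4 and shared 0 genes with the reported list for SOD2 and CAT, 1 for SOD3, GPX1 and SEPP1, and 2 for GPX3. Leaving out PMP22, chosen after seeing the data, turned 1 fallen peroxisome gene in shFbxo22 senescence into 0.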

Other observations

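Some pairs of groups have no table, and reconstructed means give their differences without a test. Senescent shFbxo22 cells against young shLuc cells were at a log2 difference of 3.65 for SEPP1, 1.28 for GPX1, 1.14 for GPX3, 1.13 for CAT, 0.56 for SOD3, 0.53 for SOD2, 0.09 for SOD1, -0.01 for PRDX1 and -0.54 for GPX4. Young shFbxo22 cells against senescent shLuc cells were at -1.64 for SOD2 and -1.51 for SOD3, and at 0.42 for SEPP1. GPX1 and GPX3 were nearly level in that pair, at 0.01 and 0.05. The sum of fold changes around the 4 tables closed to within 0.049 on the log2 scale for each of the 9 genes. The tables share their libraries and the signs were chosen so that the group means meet, so this closure is no separate check.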
